A study of Saccharomyces cerevisiae with 2 samples.

Results

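The genes that give a budding yeast cell its mating type were examined in transcript isoform data from a strain that lacks SET2. The set held 9 genes of the 6002 nuclear protein-coding open reading frames (ORFs) in the R64 annotation: 7 a-specific genes (MFA1, MFA2, STE2, STE6, BAR1, ASG7 and AGA2) and 2 alpha-specific genes (STE3 and SAG1). They were chosen by name, and every isoform on either strand that overlapped the coding span of a gene by at least 1 nt was taken. This gave 970 isoforms and 10613 molecules. Both cultures carried delta set2::kanMX4, in which the kanMX4 cassette replaces the gene of the H3K36 methyltransferase Set2, in the BY4741 background. They were grown in YPAD with 1% glucose and harvested in mid-log phase at an OD of 1. BY4741 is known as a haploid MATa laboratory strain. The labels give no agent, no pheromone treatment, no alpha strain and no strain with SET2, so the levels below belong to 1 genotype in 1 medium.

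Haploid yeast of opposite mating type find each other by peptide pheromones. A cells secrete a-factor and read alpha-factor with the receptor Ste2, while alpha cells secrete alpha-factor and read a-factor with the receptor Ste3. In a cells the regulator Mcm1 keeps the a-specific genes on, and the alpha-specific genes stay off because they need the alpha1 protein, which a cells lack. In alpha cells the alpha2 protein binds beside Mcm1 upstream of the a-specific genes and represses them.

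In transcript isoform sequencing (TIF-Seq) both ends of 1 full-length cDNA are read together, the 5′ end at the cap and the 3′ end at the poly(A) tail. A pair of start and end positions is called an isoform here, and its deposited count is called a number of molecules. The table held 6074514 molecules in 1 value column for the 2 libraries, so no value has an SD between replicates. The 95% intervals are exact Poisson intervals for counts and Wilson intervals for shares. They cover counting error only. A count of 0 was given a set limit of 3 molecules, or 4.94e-05% of the table. This is below 3.69, the upper end of the exact interval for a count of 0. Each molecule is counted once whatever its length, but long molecules were rare: those of at least 2000 nt made up 0.505%. Each gene was therefore set beside the ORFs whose length lay within 10% of its own.

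The genotype and the mating type were checked on marker genes. SET2, LEU2 and MET17 had 0 molecules on either strand; LEU2 and MET17 (also called MET15) are known to be deleted in BY4741. URA3, also deleted in that strain, had 5, all with both ends outside the ORF. They started 826 to 1509 nt before the start codon and ended 132 to 144 nt past the stop codon. HIS3, which carries an internal deletion there, had 2088, and a method that reads only molecule ends does not show such a deletion. The a1 coding sequence, HMRA1 in the annotation (chromosome III, 293835 to 294321, plus strand), had 158 molecules in sense. The whole ORF was covered by 109 of them. The R64 genome carries alpha genes at MAT, so a1 molecules from MAT and from the silent locus HMR cannot be told apart. MATALPHA1 and MATALPHA2 had 0 molecules, but 0% of the 30-nt words in their coding spans occur once in the genome, and the treatment of reads from such repeats is not given in the sources used here. The other alpha-specific genes of the marker list had few molecules: MF(ALPHA)1, the main alpha-factor gene, had 3 sense molecules, and MF(ALPHA)2, which encodes the same pheromone, had 27. Of these, 3 and 9 covered the whole ORF. AFB1, an a-specific gene outside the set, had 39 sense molecules, 37 of them over the whole ORF. Like those of the alpha-factor genes, its sense count lay below the median of 122 over all ORFs.

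The sequence upstream of the a-specific genes is shown because it carries what the 7 genes share. In the 500 nt before the start codon, on either strand, the letters CATGTNA (the core of an alpha2 site), 3 or 4 further letters, and CC and GG with 6 letters between them (the core of an Mcm1 site) followed each other in 7 of 7 a-specific genes and in 0 of the 2 alpha-specific genes. Of 6000 such windows in the genome, 9 held this pattern, or 0.150%. The other genes were GYP8, the divergent neighbour of STE2, whose window reaches the same intergenic region, and MOG1. AFB1, the a-specific gene outside the set, lacked the pattern: its window held the CC and GG letters but neither CATGTNA nor the core of the pheromone response element. The spacing was settled after the matches in the members had been seen, so the count is a description. The fragments below are 32 nt of R64, 5′ to 3′ from CATGT, with the letters of the pattern in capitals.
MFA1: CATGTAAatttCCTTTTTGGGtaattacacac
MFA2: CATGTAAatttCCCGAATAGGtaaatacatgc
ASG7: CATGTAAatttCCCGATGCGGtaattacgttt
STE2: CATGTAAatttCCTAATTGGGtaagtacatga
STE6: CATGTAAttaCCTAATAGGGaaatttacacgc
BAR1: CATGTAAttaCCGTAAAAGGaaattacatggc
AGA2: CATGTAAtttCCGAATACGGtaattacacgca

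The fragments of MFA1 (chromosome IV, 1384941 to 1384972), MFA2 (XIV, 352162 to 352193) and ASG7 (X, 101905 to 101936) read on the strand opposite to the gene. Those of STE2 (VI, 82351 to 82382), STE6 (XI, 46476 to 46507), BAR1 (IX, 322078 to 322109) and AGA2 (VII, 437100 to 437131) read on the gene's strand, and the BAR1 fragment also matches on the other strand. Their near ends lay from 106 nt (ASG7) to 213 nt (AGA2) before the most used start of the gene. Each motif alone was common. TGAAACA, the core of the pheromone response element that Ste12 binds, was found in 7 of 7 a-specific windows and in 721 of the 6000 windows. CATGTNA alone was in 17.2% of all windows, the CC and GG pair in 49.2% and TATAAA in 60.5%, and each was in 7 of 7 a-specific windows. Each of these motifs, TGAAACA included, was also in the window of the alpha-specific gene SAG1 but not in that of STE3.

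The alpha1 site core CAATGNCA was found in both alpha-specific windows, in 0 of the 7 a-specific ones and in 7.60% of all windows. Of the alpha-factor genes outside the set, MF(ALPHA)2 had a match and MF(ALPHA)1 had none. The core is shown in capitals in 30 nt of STE3 and SAG1, on the gene's strand; in STE3 the match reads on the opposite strand.
STE3: acaattttctcTGTCATTGtgacactaatt
SAG1: gttttaccataCAATGGCAgctttatgtca

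These lie at 114949 to 114978 on chromosome XI and at 445113 to 445142 on chromosome X, both on the minus strand. A match of letters is not evidence that a protein was bound.

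Where the molecules began is shown next, as 21 nt of the gene's strand around the most used start at or before the start codon, with the bases at -1 and +1 in capitals.
MFA1: ggataaaacCAaaataagtac
MFA2: tagagacacCAgcgagctatc
STE2: aaaatgcacCGttaagaacca
STE6: aaattccacTAggaaacaaag
BAR1: aaatcatacCAaaataaaaag
ASG7: acaaaaattCAaagaatgacg
AGA2: gtaagctctCAacagtcactt

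All 7 had a pyrimidine at -1 and a purine at +1, the pair known as the initiator in yeast. Among whole-ORF molecules this pair marked the start of 92.8% in MFA1, 96.4% in MFA2, 96.2% in STE2, 95.6% in BAR1, 93.8% in AGA2 and 69.9% in ASG7. Over all ORFs it was 86.0%. In ASG7, the lowest of the 6, the second most used start, 21 nt before the start codon with 67 molecules, has TC at these positions.

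The a-specific genes had 10523 sense molecules (10323 to 10726), and the alpha-specific genes had 31 (21.1 to 44.0). The median gene had 654 sense molecules among the 7 and 15.5 among the 2, against 122 over all 6002 ORFs. Molecules that covered the whole ORF were found in 6 of 7 a-specific genes and in 0 of 2 alpha-specific genes; over all ORFs the share with such a molecule was 73.3%. The pheromone genes MFA1 and MFA2 held 75.4% of the a-specific molecules. The a-specific genes had at least 50 sense molecules in 6 of 7 cases, and the alpha-specific genes in 0 of 2, where 71.3% of all ORFs did. The share with 0 sense molecules was 7.46% over all ORFs, and STE3 was in it.

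**Figure D1:**
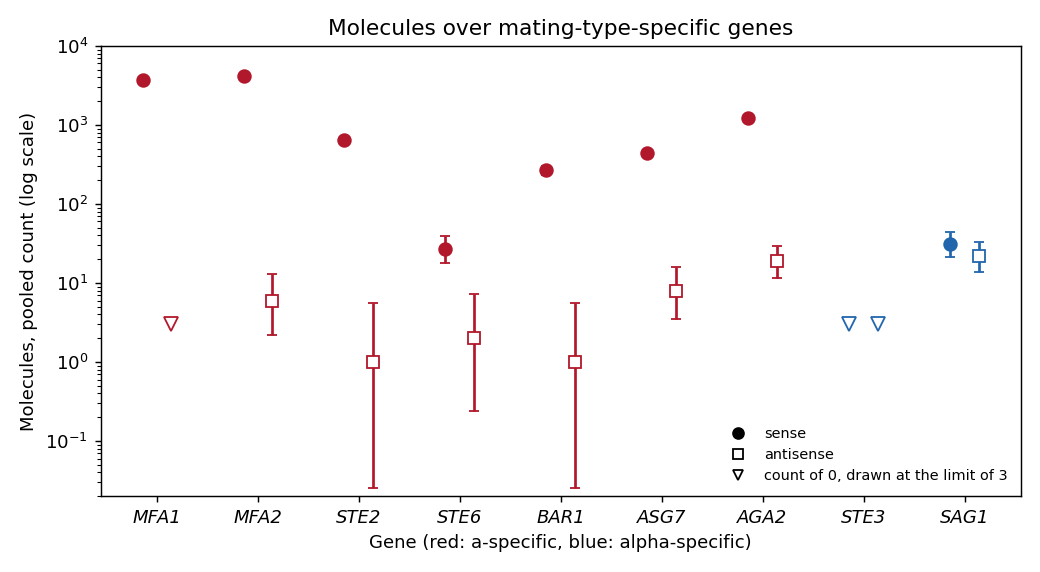
Sense (filled circles) and antisense (open squares) molecules over each gene on a log axis, with exact Poisson 95% intervals and counts of 0 drawn as triangles at the limit of 3. The a-specific genes (red) run from 27 sense molecules in STE6 to 4194 in MFA2, while STE3 has 0 and SAG1 has 31 (blue).

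The a-factor precursors are encoded by a pair of very short genes. MFA1 (YDR461W, chromosome IV, 1385176 to 1385286, plus strand, 111 nt) had 3737 sense molecules (3618 to 3859). MFA2 (YNL145W, chromosome XIV, 352414 to 352530, plus strand, 117 nt) had 4194 (4068 to 4323). MFA2 thus had 1.12 times the count of MFA1 (exact binomial interval 1.07 to 1.17), a difference beyond counting error whose spread between cultures is not known. They ranked 248 and 233 among the 6002 ORFs. Few ORFs are this short: 17 of 18 ORFs of like length had fewer molecules than MFA1, and 17 of 17 had fewer than MFA2.

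Nearly all of these molecules could encode the whole precursor. Whole-ORF molecules made up 98.4% in MFA1 (97.9% to 98.7%) and 98.6% in MFA2 (98.2% to 98.9%). The molecules were short, with a median of 285 nt in MFA1 and 333 nt in MFA2. In MFA1 the start sites at 28, 23 and 19 nt before the start codon had 1531, 972 and 633 molecules. In MFA2 the starts were spread more widely: the site at 41 nt had 1468 molecules, that at 44 nt had 592 and that at 62 nt had 481. At the other end 77.2% of MFA2 molecules but 50.7% of MFA1 molecules stopped at 1 position, 175 and 148 nt past the stop codon. Within 10 nt of that position the genes were alike, with 96.1% of whole-ORF molecules in each. In both genes 100% of the molecules had 30-nt ends that occur once in the genome, so the genes could be told apart.

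The promoters of the a-factor genes and of STE2 are given as the 250 nt that end just before the most used start, from R64 on the plus strand. Capitals mark the letters of the pattern above, TGAAACA and TATAAA on either strand.
MFA1: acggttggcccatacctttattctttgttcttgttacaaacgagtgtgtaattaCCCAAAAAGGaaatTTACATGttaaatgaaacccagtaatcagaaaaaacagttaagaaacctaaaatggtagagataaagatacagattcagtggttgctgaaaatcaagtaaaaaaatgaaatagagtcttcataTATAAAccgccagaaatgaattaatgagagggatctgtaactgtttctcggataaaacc
MFA2: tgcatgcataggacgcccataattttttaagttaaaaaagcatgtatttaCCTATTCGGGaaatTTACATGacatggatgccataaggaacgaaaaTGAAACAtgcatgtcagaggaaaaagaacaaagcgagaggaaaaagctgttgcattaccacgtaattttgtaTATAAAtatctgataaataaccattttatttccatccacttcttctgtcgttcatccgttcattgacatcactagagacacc
STE2: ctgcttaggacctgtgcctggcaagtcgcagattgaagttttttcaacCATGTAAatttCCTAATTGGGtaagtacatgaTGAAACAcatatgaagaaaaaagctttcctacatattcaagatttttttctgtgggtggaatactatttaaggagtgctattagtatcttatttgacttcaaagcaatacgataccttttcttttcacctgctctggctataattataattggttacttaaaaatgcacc

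These windows are chromosome IV 1384898 to 1385147, chromosome XIV 352123 to 352372 and chromosome VI 82303 to 82552. TATAAA ends 54 nt before the most used start in MFA1 and 77 nt before it in MFA2; the STE2 window holds no TATAAA. MFA2 and STE2 have TGAAACA within the window, and MFA1 does not.

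The receptor genes could be compared at like length. STE2 (YFL026W, chromosome VI, 82580 to 83875, plus strand, 1296 nt), the alpha-factor receptor, had 654 sense molecules (605 to 706), more than 605 of the 678 ORFs of like length, whose median was 121. STE3 (YKL178C, chromosome XI, 113215 to 114627, minus strand, 1413 nt), the a-factor receptor of alpha cells, had 0 molecules on either strand. The STE2 sense count was 218 times the set limit of 3 molecules for STE3. Its whole-ORF count, 158, was 52.7 times that limit. These are ratios of counts to the set limit, not lower ends of an interval. Of the 719 ORFs of like length to STE3, 61 had 0 sense molecules and 47 had 0 on either strand. Over all ORFs 5.13% had 0 on either strand. In the STE3 coding span 100% of the 30-nt words occur once in the genome. The region around STE3 was covered: within 1000 nt upstream there were 33 molecules on its strand and 13 on the other, and within 1000 nt downstream there were 41 and 0.

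**Figure D2:**
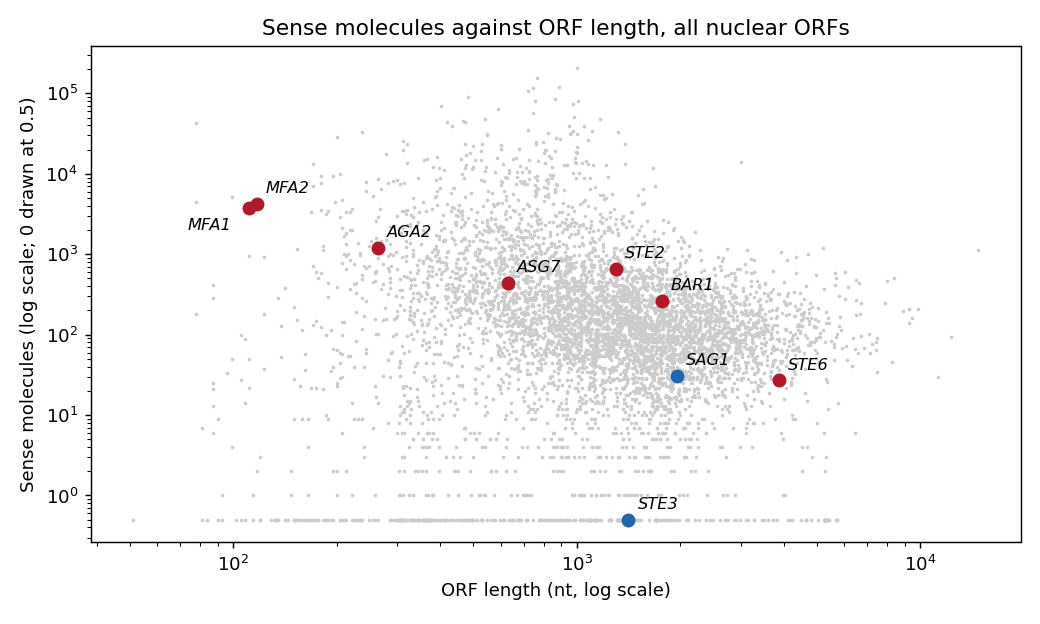
Sense molecules against ORF length for all 6002 nuclear ORFs (grey points) on log axes, with a-specific genes in red and alpha-specific genes in blue; a count of 0 is drawn at 0.5. MFA1, MFA2, STE2 and BAR1 lie above most ORFs of their length, STE6 and SAG1 lie low for theirs, and STE3 is at 0.

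Most STE2 molecules did not cover the receptor's whole ORF. Of the 654, 468 started inside and ended past the stop codon, 71.6% (68.0% to 74.9%), while 158 covered the whole ORF, 27 ended inside and 1 had both ends inside. Among the 616 ORFs of like length with sense molecules the median share of inside starts was 52.1%, with quartiles of 31.6% and 73.9%, so STE2 lay inside that range. The inside starts used 124 positions, and the most used, 1091 nt inside, had 26 molecules. Of the inside starts 69.4% lay in the later part of the ORF, beyond its midpoint. The initiator pair marked 17.1% of them, against 96.2% of whole-ORF starts and 24.7% of all positions in the coding span; over all ORFs it marked 35.0% of inside starts. Whether these RNAs were capped at those positions in the cell, or were shortened before the cap was read, was not tested.

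Whole-ORF and inside-start molecules of STE2 ended in the same region. The end at 190 nt past the stop codon was the most used in both, with 22 of 158 and 98 of 468 molecules. STE2 ends were spread: the most used end of whole-ORF molecules took 13.9%, against 77.2% in MFA2.

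STE6 (YKL209C, chromosome XI, 42423 to 46295, minus strand, 3873 nt) encodes the transporter that exports a-factor. It had 27 sense molecules (17.8 to 39.3), and 24 of the 136 ORFs of like length had fewer. None covered the whole ORF, as in 110 of those 136 ORFs, or 80.9%. The table has 102 molecules at least as long as this ORF, and 6 of the 254 ORFs of at least its length had a whole-ORF molecule. Whether the full STE6 transcript was absent or was missed for its length cannot be told apart.

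The STE6 molecules nonetheless marked the gene's start. Of the 27, 24 started from 24 to 47 nt before the start codon and ended inside, and the other 3 had both ends inside. The start at 24 nt had 9 molecules. The ends fell from 1046 to 1765 nt into the ORF at 6 positions, with 6 molecules at 44926 and 5 at 44928. None of these 24 ended before A-rich sequence, meaning at least 6 A in the next 10 nt of genome. The same held for the inside ends of STE2, AGA2 and SAG1, while in BAR1 the share was 7.69%. Pooled over all ORFs, 66.3% of molecules with an inside end did so. STE6 had 0 molecules that started inside and passed the stop codon, where the median share over the 127 ORFs of like length with sense molecules was 92.0%.

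BAR1 (YIL015W, chromosome IX, 322342 to 324105, plus strand, 1764 nt) encodes the secreted protease that degrades alpha-factor. It had 266 sense molecules (235 to 299.96), more than 510 of 635 ORFs of like length, whose median was 86. Whole-ORF molecules numbered 114, or 42.9% (37.1% to 48.9%), although the ORFs of like length had a median of 8. A further 100 started inside and 52 ended inside. The starts of the whole-ORF molecules were narrow, with 46 at 32 nt and 39 at 37 nt before the start codon, and the molecules with an inside end began at the same sites, with 31 and 9.

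The 100 inside starts of BAR1 lay from 175 to 1620 nt into the ORF. A pair of sites 1589 and 1576 nt inside had 18 and 15 molecules, and the other 28 positions had at most 7 each. The initiator pair marked 10 of the 100 inside starts, against 24.4% of all positions in the coding span. The most used end, 76 nt past the stop codon, had 9 A in the next 10 nt, and ends before A-rich sequence made up 67.5% of whole-ORF molecules, against 20.7% over all ORFs. Priming of the cDNA on genomic A stretches at this end was not tested.

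**Figure D3:**
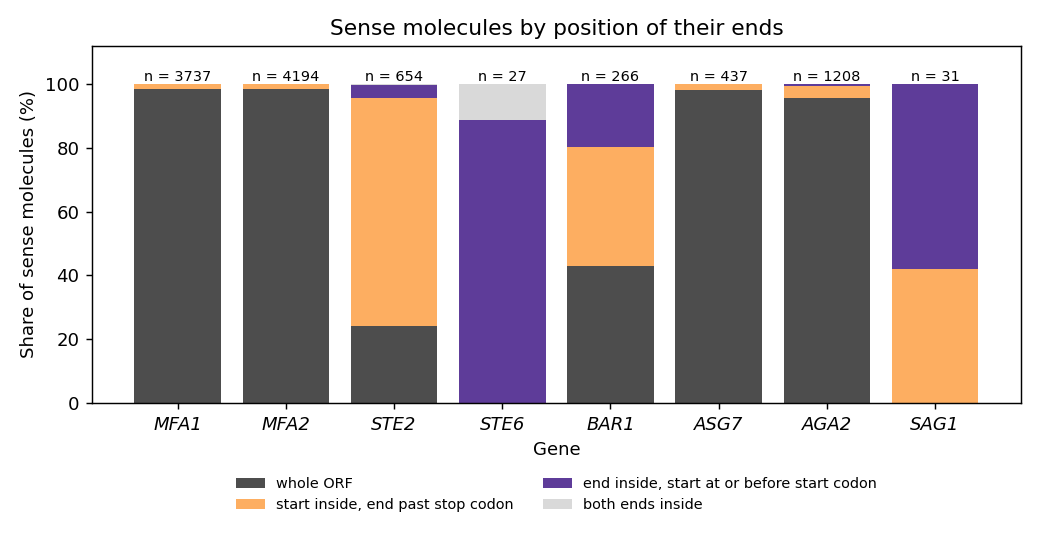
Share of sense molecules that covered the whole ORF, started inside, ended inside or did both, for the 8 genes with sense molecules, with the number of molecules above each bar. The short genes MFA1, MFA2, ASG7 and AGA2 are nearly all whole-ORF, STE2 and BAR1 are mixed, and STE6 and SAG1 have no whole-ORF molecule.

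ASG7 (YJL170C, chromosome X, 101150 to 101779, minus strand, 630 nt) encodes a protein that blocks signalling from Ste4 after cells have mated. It had 437 sense molecules (397 to 479.96), of which 429, or 98.2% (96.4% to 99.1%), covered the whole ORF. With 225 of 388 ORFs of like length below it, its level was near the middle. The 3′ UTR was short, with a median of 29 nt and 90% of molecules between 24 and 43 nt; only 1.06% of the 1894 ORFs with at least 100 whole-ORF molecules had a shorter median. ASG7 lies 447 nt from the SET2 ORF, so its promoter borders the locus that kanMX4 replaced. Leaving out molecules that overlap the ASG7 ORF, there were 0 molecules on either strand within 1000 nt upstream. That window takes in part of the SET2 ORF, which the strain lacks, so the deletion fixed part of this 0 in advance. An effect of the cassette on ASG7 cannot be told apart from that of losing SET2.

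AGA2 (YGL032C, chromosome VII, 436570 to 436833, minus strand, 264 nt) encodes the adhesion subunit of a-agglutinin. It had 1208 sense molecules (1141 to 1278), more than 56 of 75 ORFs of like length, and 95.8% covered the whole ORF (94.5% to 96.8%). The start at 54 nt before the start codon had 579 of the 1157 whole-ORF molecules, and the rest were spread over 43 other positions. The most used end, 100 nt past the stop codon with 54.5% of whole-ORF molecules, had 9 A in the next 10 nt. Ends before A-rich sequence made up 81.2%; priming on genomic A stretches was not tested here either. A further 7 molecules began 176 nt before the start codon and ended 65 nt into the ORF.

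SAG1 (YJR004C, chromosome X, 442909 to 444861, minus strand, 1953 nt) encodes alpha-agglutinin, the partner of Aga2 on alpha cells. It had 31 sense molecules (21.1 to 44.0), and 131 of 581 ORFs of like length had fewer. None covered the whole ORF, as in 28.1% of those ORFs, and the median number of whole-ORF molecules among them was 5.

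Of the 31 SAG1 molecules, 0 began in the 100 nt before its start codon. A group of 18 began at 445668 and 445678, which is 807 and 817 nt upstream, and ended at 248 and 244 nt inside the ORF. The site at 445668 lies 255 nt from the start codon of the divergent gene APL1, and 215 nt from the most used APL1 start. The other 13 molecules began from 1664 to 1823 nt inside the ORF and ended past the stop codon, with 7 at 1705 nt. In the plot of starts and ends the SAG1 coding span is empty between these groups, whereas STE2, BAR1 and STE6 have a cluster of starts within 100 nt of the start codon.

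**Figure D4:**
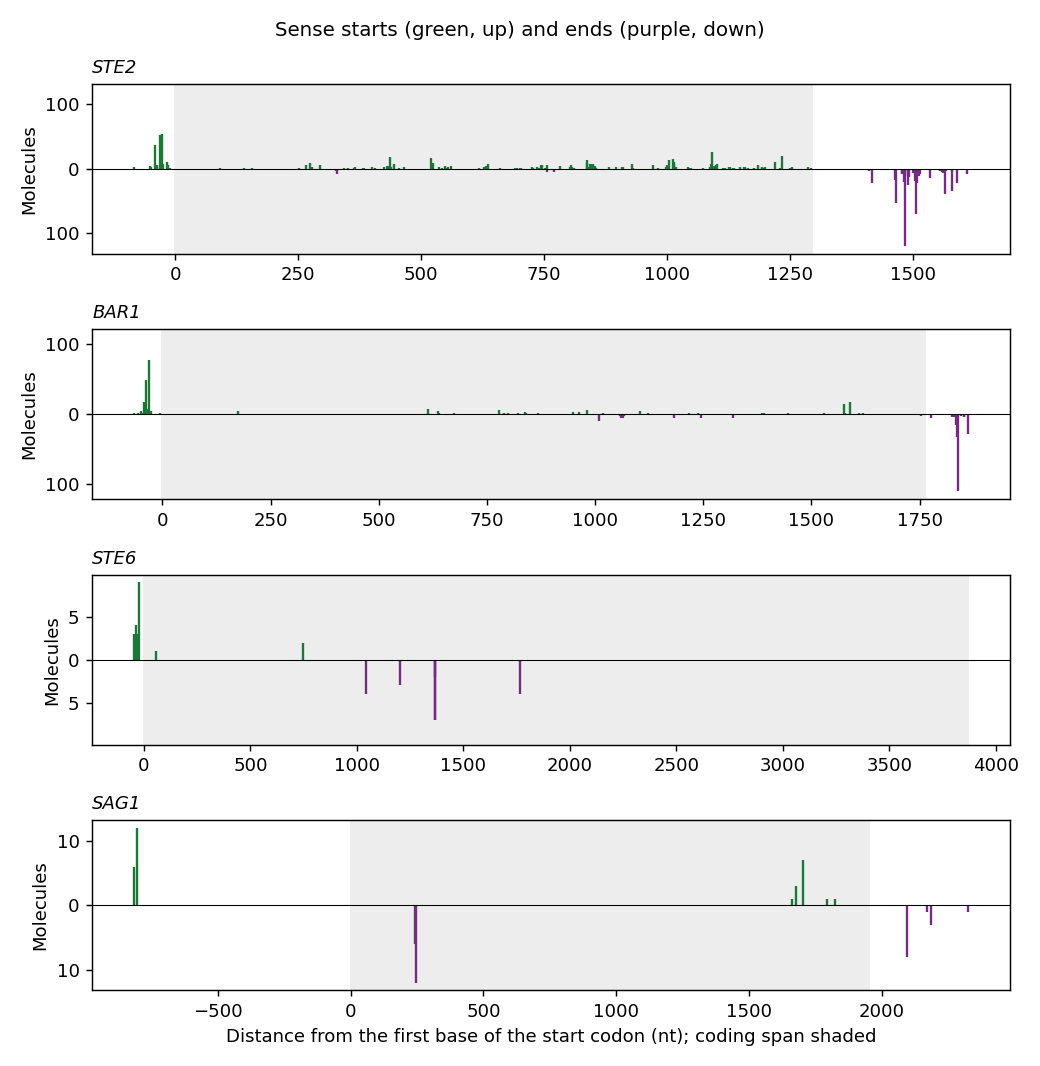
Sense starts (green, upward) and ends (purple, downward) in molecules, against distance in nt from the first base of the start codon, with the coding span shaded, for STE2, BAR1, STE6 and SAG1. STE2, BAR1 and STE6 have starts just before the start codon; SAG1 has starts 807 and 817 nt upstream and near its 3′ end.

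Antisense molecules were few over the a-specific genes and made up a large part of the few molecules over SAG1. The a-specific genes had antisense molecules in 6 of 7 cases, and the alpha-specific genes in 1 of 2, where 75% of all ORFs did. The 7 a-specific genes had 37, or 0.350% of sense plus antisense molecules (0.254% to 0.483%). SAG1 had 22 on 10 isoforms, against 31 sense, and STE3 had 0, which gave 41.5% for the pair (29.3% to 54.9%). All genes with sense molecules here had more sense than antisense molecules; over all ORFs 13.5% had more antisense. The SAG1 antisense count was higher than that of 71.5% of all ORFs, while the median over ORFs of its length was 10.

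The antisense isoforms differed in where they came from. Over SAG1, 7 of 22 molecules ran from 442820 to 443594, and 6 ran past the start codon, 4 of these to an end at 445401. Over AGA2, 14 of 19 also overlapped HOP2, the convergent gene 168 nt away, on their own strand. MFA2 had 6 antisense molecules of 1 isoform, ASG7 had 8, STE6 had 2, STE2 and BAR1 had 1 each and MFA1 had 0. MF(ALPHA)2, outside the set, had 62 antisense against 27 sense molecules, and 45 of the 62 also overlapped the convergent gene LIF1.

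The untranslated ends could be set side by side in the 6 genes with at least 100 whole-ORF molecules. Median 5′ leaders were 20 nt in ASG7, 26 nt in MFA1, 30 nt in STE2, 37 nt in BAR1, 41 nt in MFA2 and 54 nt in AGA2, all below 60 nt. The median over 1894 ORFs with as many molecules was 38 nt, with quartiles of 25 and 59 nt. Median 3′ UTRs were 29 nt in ASG7, 76 nt in BAR1, 100 nt in AGA2, 148 nt in MFA1, 175 nt in MFA2 and 195 nt in STE2. The median over the 1894 ORFs was 116 nt, with quartiles of 86 and 161 nt, so ASG7 and BAR1 lay below the lower quartile and MFA2 and STE2 above the upper. In BAR1 and AGA2 most whole-ORF molecules ended before A-rich sequence, and priming there was not tested, so their 3′ UTR lengths carry that limit.

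The number of different isoforms was compared at equal depth, as the number expected among 100 whole-ORF molecules. It was 20.1 in BAR1, 31.3 in MFA1, 31.7 in MFA2, 38.9 in STE2, 41.1 in ASG7 and 47.8 in AGA2. The median over the 1894 ORFs was 36.8, with quartiles of 29.6 and 45.1. BAR1 thus had few isoforms and AGA2 many, although AGA2 had the largest share of molecules at a single start among the 6.

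**Figure D5:**
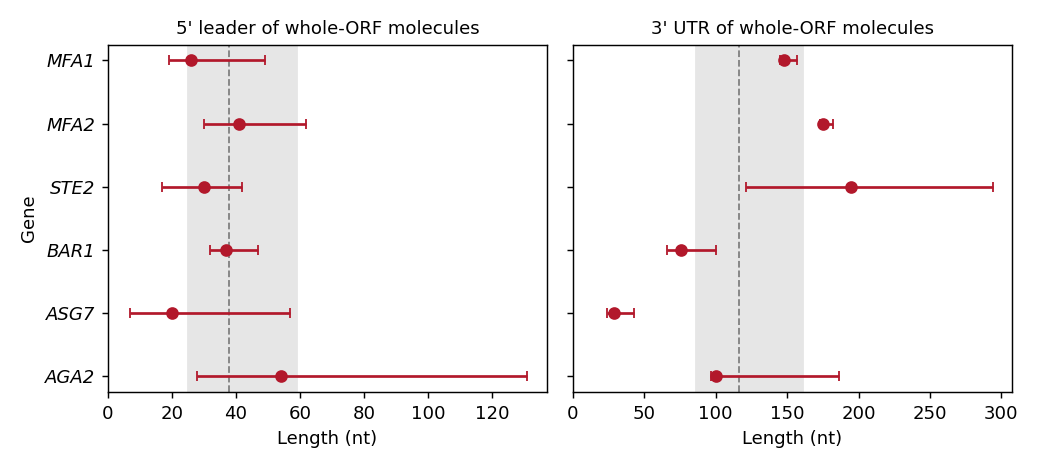
Median length in nt of the 5′ leader and the 3′ UTR of whole-ORF molecules, with bars from the 5th to the 95th percentile of molecules, for the 6 genes with at least 100 such molecules; shading and dashed line give the quartiles and median over 1894 ORFs. The 3′ UTR of ASG7 is short at 29 nt, and the bar of STE2 reaches from 121 to 294 nt.

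A fixed mating-pathway list was counted as well. Besides signalling genes, regulators and outputs it holds 7 enzymes that mature a-factor, 3 that mature alpha-factor, and HO and NEJ1. Of 38 listed genes outside the set, 32 had at least 50 sense molecules (84.2%, against 71.3% of all ORFs), and 30 had a whole-ORF molecule (78.9%, against 73.3%), so the list was close to the background. DIG2 and FIG1 had 0 sense molecules, and STE11, the first kinase of the MAP kinase cascade, had 121 sense but 0 whole-ORF molecules. Downstream of the receptors, the G protein subunits had 2615 sense molecules in GPA1 (alpha subunit), 933 in STE4 (beta) and 939 in STE18 (gamma), of which 592, 634 and 736 covered the whole ORF. The kinases of the cascade ran from 115 in STE7 to 492 in FUS3, the MAP kinase. Whole-ORF molecules numbered 354 in FUS3 but 20 in STE7, 14 in KSS1 and 3 in STE20. The transcription factors STE12 and MCM1 had 228 and 147, of which 9 and 82 covered the whole ORF. All 7 listed enzymes that mature a-factor had sense molecules, where 7.46% of all ORFs had 0. They ran from 52 in STE24, a protease, to 375 in RAM2, a farnesyltransferase subunit. Whole-ORF molecules were found in 6 of the 7, where 73.3% of all ORFs had one. AXL1 had 0 of 198 and STE23 1 of 236, while RAM2 had 344 of 375.

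A group of 11 listed genes held inhibitors and outputs of the pathway and also HO and NEJ1, which are neither. The group ran from 0 to 490 sense molecules, with a median of 68 against 122 over all ORFs. The medians are not matched for ORF length. Of the 11, 7 had at least 50, where 71.3% of all ORFs did. HO, the mating-type switching endonuclease, had 490, and MSG5, a phosphatase that acts on Fus3, had 397. FAR1, which arrests the cell cycle, had 362, SST2, which turns off the G protein, had 234, and NEJ1, a DNA repair factor, had 100. Lower counts were found in genes of cell fusion and adhesion. FIG1 had 0 sense molecules, FIG2 3, FUS2 7, PRM1 18, FUS1 60 and AGA1, the anchor of Aga2, 68. FIG2, FUS2 and PRM1 are long, and none of the 3 had a whole-ORF molecule, nor did FIG1, of 897 nt. FUS1 had 24 and AGA1 had 13. Among the genes with higher sense counts, HO had 30 whole-ORF molecules, MSG5 69 and NEJ1 57. FAR1 and SST2, of 2493 and 2097 nt, had 11 and 9. With 1 pooled column there is no pattern across samples by which other genes could be ranked for likeness to the set.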

How the data were processed

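The authors deposited 1 table with a whole-number count per pair of start and end positions, per the file headers; its single value column pools both libraries. RNA was circularised as full-length cDNA of capped and polyadenylated molecules, per the labels' protocols. The submitters' processing notes name CASAVA, Novoalign 2.07.10 and R64; filters and duplicate removal are not given in the sources used here, so a count may hold PCR copies. Counts were used unscaled, and 0 columns were left unused. Positions fitted R64: at 13741 starts with at least 30 molecules, 73.3% had the initiator pair, against at most 28.1% at shifts of up to 20 nt.

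Members, gene lists and motifs were chosen with earlier results of these data known. Named genes were the members, the fixed mating-pathway list, strain checks and neighbouring ORFs. Isoforms were classed against the coding span with Python 3.11.15, numpy 2.4.6, pandas 2.3.3 and scipy 1.17.1; 1000 simulated isoforms were tested and 0 were misplaced. No test between groups was possible. The alternatives counted isoforms once, required 2 molecules or 100 nt of overlap, dropped isoforms with more overlap elsewhere, tolerated starts 30 nt inside, or left out MFA1 and MFA2.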

Additional observations from a re-analysis of the deposited data

How the results depend on the processing

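Of 28 alternatives, 15 stayed inside the counting interval of the value as reported and 13 did not. The 15 include those for the alpha-specific whole-ORF share, which was 0 in every setting applied to it. Settings that drop or reweight molecules cannot raise a share of 0, so only the one that tolerated starts 30 nt inside could have moved it. As reported, the whole-ORF share in the a-specific genes was 91.87% (91.34% to 92.38%). Counting each isoform once gave 941 a-specific and 7 alpha-specific sense isoforms, a whole-ORF share of 69.3% in the a-specific genes, and antisense shares of 1.26% and 58.8%. Isoforms counted at least 2 times gave 10203 a-specific sense molecules and a whole-ORF share of 92.8%. An overlap of at least 100 nt gave a share of 93.1% and an antisense share of 0.163%. Without isoforms that overlapped another ORF more, the a-specific antisense share was 0.218%. With starts up to 30 nt inside taken as whole-ORF the share was 92.4%. Without MFA1 and MFA2 there were 2592 sense molecules and a share of 71.7%. The setting without MFA1 and MFA2 does not bear on the alpha-specific genes. The alternatives set these shifts by construction, since they drop or reweight molecules. No paired analysis was possible because the single column pools both replicates, and for the same reason no replicate could be left out. Whole-ORF molecules were absent from 80.9% of the ORFs of STE6's length and from 28.1% of those of SAG1's length, and the genes had 27 and 31 sense molecules.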

Other observations

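Antisense molecules outnumbered sense molecules in 7 of the 38 genes on the mating-pathway list, or 18.4%, where 13.5% of all ORFs did. RAM2 had 8153 antisense against 375 sense molecules, and 100% of the antisense molecules also overlapped MCO12, an ORF on their own strand. FIG2, a cell wall adhesin gene induced by pheromone, had 2277 antisense against 3 sense molecules, and 2261 of the 2277 also overlapped YCR090C. STE7, the MAP kinase kinase gene, had 585 against 115, and all 585 also overlapped DMO2. DIG2, which encodes an inhibitor of Ste12, had 15 antisense and 0 sense molecules, and PRM1 had 37 against 18; for these genes 0 antisense molecules overlapped another ORF on their strand. KAR4 had 38 against 25 and FIG1 had 2 against 0.

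MOG1, the gene besides GYP8 and the a-specific genes with the alpha2 and Mcm1 core letters in its window, had it 348 nt before its start codon. It had 626 sense molecules, of which 0 covered the whole ORF.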
